A study of Mus musculus with 6 samples.

Results

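The kinesin motor genes of mouse were followed in cultured male germline stem cells that had been sorted with and without the adhesion molecule E-cadherin (CDH1). Members were the rows of the authors' deposited table whose Ensembl identifier belongs, in GENCODE M21, to a protein-coding gene with a symbol of the Kif type, and 41 of the 22432 rows met this rule. Of the 41, 40 encode kinesin motors, while Kif1bp encodes a protein that binds kinesins of the Kif1 type and is no motor itself. The annotation holds 43 such genes, and Kif1a and Kif12 were not analysed here. The motors were grouped by textbook role into 13 mitotic kinesins, 15 transport kinesins, 4 C-terminal Kifc motors, and 8 kinesins of cilia, centrioles or atypical function that belong to none of these.

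Total RNA had been sequenced from 3 CDH1+/THY1+ and 3 CDH1-/THY1+ samples, so every sample was positive for THY1, a surface glycoprotein used to enrich germline stem cells. Each population came from the same 3 male cultures, at passage 6 to 8, kept on DR4 fibroblast feeders in a medium with GDNF and FGF. Cultures RP7 (age label 8 weeks) and RP5 (19 days) carried the strain label OCT4/GFP; Dox-OCT4, and culture WT1 (5 weeks) the label C57BL/6. The labels do not say how many animals a culture came from, and a feeder cell that passes the sort would be sequenced with the germ cells.

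Kinesins use ATP to walk along microtubules or to take their ends apart. Most have the motor domain at the start of the protein and walk towards the plus end, Kifc motors have it at the end and walk towards the minus end, and the Kif2 family has it in the middle and removes tubulin from microtubule ends. Mitotic kinesins build the spindle and finish cell division, and transport kinesins carry membranes, RNA and proteins. Ciliary kinesins set the length and signalling of cilia, the organelles to which the sperm tail is related.

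Across the family, changes went both ways. Of the 41 genes, CDH1+/THY1+ cells had 5 higher and 10 lower past the threshold of the authors' deposited table (DESeq2, adjusted p under 0.05), which is 36.6% called, against 33.5% of all 19211 genes with an adjusted p (17.1% higher and 16.4% lower). The share called in the family was thus near that of all genes, and its median log2 fold change was -0.11, against 0.01 over all genes of the authors' deposited table. At least 2-fold, 2 members were higher and 7 lower, against 7.47% of all genes higher and 6.54% lower (14.0% together). By role, the lower genes were 5 of 8 cilium and atypical kinesins, 4 of 15 transport kinesins and 1 of 13 mitotic kinesins. The higher genes were 3 of 4 C-terminal motors, 1 transport kinesin (Kif5b) and 1 mitotic kinesin (Kif15). These groups were not tested against each other.

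**Figure D1:**
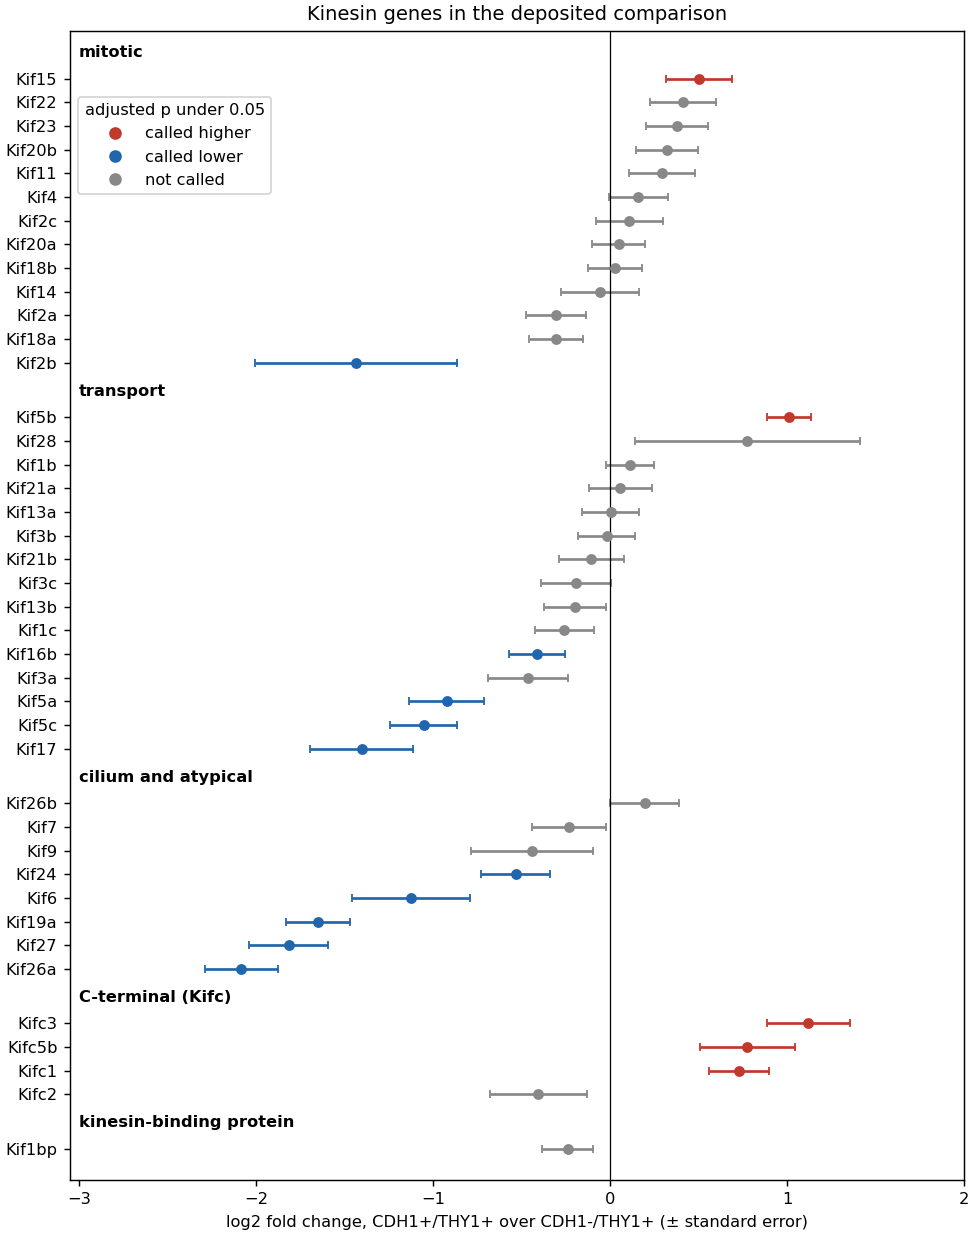
Change of each of the 41 members on the log2 scale (CDH1+/THY1+ over CDH1-/THY1+), with the standard error of the authors' deposited table as bars, grouped by role; red and blue points were called at an adjusted p under 0.05. The cilium and atypical group reaches -2.08 at Kif26a, 11 of 13 mitotic kinesins are grey, and 3 of 4 C-terminal motors lie between 0.73 and 1.12.

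The authors' deposited table gives 1 mean normalised count over all 6 libraries per gene, a log2 fold change with its standard error (written after ±), and no value per library. Its fold changes appear to be shrunken towards 0, since no standard error exceeds 0.639 even for genes with few reads, and they may understate changes of such genes. That CDH1+/THY1+ stands over CDH1-/THY1+ in each fold change was read from the table's name. Cdh1 itself was not analysed here, so this direction, on which every higher and lower rests, was not checked against it. Read this way, germ cell markers had a median log2 fold change of -1.36 and fibroblast markers 0.86 per the authors' deposited table. Were the direction reversed, these signs and every higher and lower given here would swap. The spacing of the lowest means gave library size factors from 0.913 to 1.08. Standard errors of the members were ordinary, with a median percentile of 55.0 and a highest of 85.0 among the 200 genes of nearest mean count.

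Markers of other cells moved in the same comparison. Of 18 germ cell markers, 14 were lower and 0 higher per the authors' deposited table (median log2 fold change -1.36), 77.8% called, against 33.5% of all genes. The lowest were the piRNA granule gene Tdrd1 at -2.22 ± 0.20 (adjusted p = 2.46e-27) and the spermatogonial factor gene Sohlh1 at -2.17 ± 0.28 (adjusted p = 1.19e-12). Of 20 fibroblast markers, 7 were higher, 0 lower and 13 not called (median 0.86), 35.0% called, against 33.5% of all genes. Those called were led by S100a4 at a log2 fold change of 1.43 ± 0.57 (adjusted p = 0.0363) and the caldesmon gene Cald1 at 1.21 ± 0.17 (adjusted p = 1.6e-11) per the authors' deposited table. Pdgfra had 1.49 ± 0.63 without a call (adjusted p = 0.0519). Standard errors were high for their mean count, with a median percentile of 96.75 for fibroblast and 86.25 for germ cell markers. The part of the germ cell and fibroblast marker shifts in the kinesin changes was not tested. In bulk RNA, fewer cells of a type and less RNA per cell cannot be told apart.

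Mitotic kinesins were the most abundant part of the family. Per kilobase of exon, they made up 53.6% of the summed mean count of the 40 motors per the authors' deposited table, against 32.0% for transport kinesins, 8.97% for cilium and atypical kinesins and 5.49% for C-terminal motors. The highest level of any kinesin per kilobase of exon was that of Kif20a, with a mean normalised count of 940, followed by Kif1c with 507, Kif2c with 502, Kif5b with 459 and Kif11 with 444 per the authors' deposited table. Exons were merged over all transcripts of a gene, so this order and the shares above depend on the length used. Kif11 has 7461 merged bases but 4770 stretches of 50 bases in its longest transcript, against 7276 and 6635 for Kif1c. Of all stretches of 50 bases in the longest Kif20a transcript, 31.2% also occur in a transcript of another gene, so its level may be uncertain. The lowest were Kif28 with 0.865 and Kif2b with 4.05 per the authors' deposited table.

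**Figure D2:**
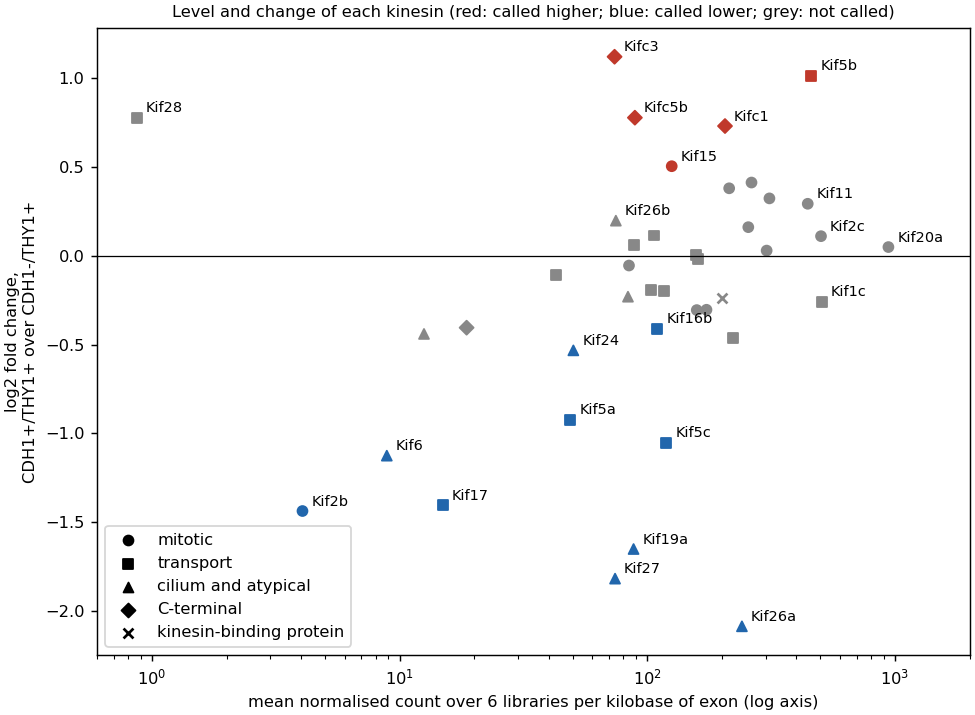
Mean normalised count over the 6 libraries per kilobase of exon (x axis, log scale) against the change on the log2 scale, CDH1+/THY1+ over CDH1-/THY1+ (y axis), for the 41 members, with shapes for the role and colours for the call. The abundant mitotic kinesins, from 213.9 per kilobase for Kif23 to 940 for Kif20a, lie between 0.03 and 0.41, while the abundant Kif5b lies at 1.01 and Kif26a at -2.08.

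Most mitotic kinesins were not called. Of 13, 1 was higher, 1 was lower and 11 were not called per the authors' deposited table, a share of 15.4% called, against 33.5% of all genes, a difference that was not tested, and the median log2 fold change was 0.11. Kifc1, a spindle pole motor that was called higher, was counted with the C-terminal motors, so this share depends on the grouping. For the 11 not called, the 95% intervals of the log2 fold change lay within -0.64 and 0.78 per the authors' deposited table. Changes up to those bounds are not excluded, and these intervals rest on shrunken values.

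Among motors that push the spindle poles apart, Kif15, which can stand in for Kif11 and is guided by TPX2, was 1.42-fold higher in CDH1+/THY1+ cells per the authors' deposited table (log2 0.50 ± 0.18, adjusted p = 0.022, mean count 1382). Of the 15 called members, 5 lost the call under Benjamini-Yekutieli adjustment, and Kif15 was among them (adjusted p = 0.291). Kif11 itself, the tetrameric motor known as Eg5, had a log2 fold change of 0.29 ± 0.19 and no call (adjusted p = 0.224, mean count 3313) per the authors' deposited table. Motors of chromosome arms and alignment stood on both sides of 0. The chromokinesin gene Kif22 had a log2 fold change of 0.41 ± 0.19 (adjusted p = 0.0751) and the chromokinesin gene Kif4, an X-linked partner of PRC1, 0.16 ± 0.17 (adjusted p = 0.496) per the authors' deposited table. Kif18a, which damps chromosome movements at the metaphase plate, had a log2 fold change of -0.31 ± 0.15 (adjusted p = 0.109), and its relative Kif18b, which acts on astral microtubules, 0.03 ± 0.15 (adjusted p = 0.916) per the authors' deposited table.

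Motors of the spindle midzone and of cytokinesis were not called. Kif23, which forms the centralspindlin complex with RACGAP1, had a log2 fold change of 0.38 ± 0.17 (adjusted p = 0.0781) and Kif20b 0.32 ± 0.17 (adjusted p = 0.139) per the authors' deposited table. Kif20a, which carries the Aurora B complex to the midzone, had a log2 fold change of 0.05 ± 0.15 (adjusted p = 0.846), and Kif14, a partner of citron kinase, -0.06 ± 0.22 (adjusted p = 0.879) per the authors' deposited table. The 95% interval for Kif20a was -0.25 to 0.34.

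The 3 depolymerases of the Kif2 family differed. Kif2a, which acts at spindle poles and in neurons, had a log2 fold change of -0.30 ± 0.17 (adjusted p = 0.157), and Kif2c, known as MCAK, which corrects wrong attachments at centromeres, 0.11 ± 0.19 (adjusted p = 0.708) per the authors' deposited table. Kif2b was lower at a log2 fold change of -1.44 ± 0.57 (adjusted p = 0.0368), with a mean count of only 9.08 per the authors' deposited table. That mean corresponds to 53 reads in all, with 3, 3, 5, 9, 15 and 18 reads in the 6 libraries, which carry no names in the table. All 6 libraries thus held Kif2b reads, and the highest held 34.0% of them. The call was lost under Benjamini-Yekutieli adjustment (adjusted p = 0.479).

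Proteins that work with the mitotic kinesins had calls in 1 direction. Of 20 partners, 9 were higher and 0 lower per the authors' deposited table (45.0% called, against 33.5% of all genes). Their median log2 fold change was 0.31, against 0.01 over all genes. The hyaluronan-mediated motility receptor gene Hmmr, a spindle assembly factor, rose to a log2 fold change of 1.42 ± 0.23 (adjusted p = 1.59e-08), and the survivin gene Birc5, a subunit of the Aurora B complex, to 1.34 ± 0.24 (adjusted p = 3.58e-07) per the authors' deposited table. Of the direct partners of members, some were higher and others were not called. Tpx2, which guides Kif15, had a log2 fold change of 0.74 ± 0.17 (adjusted p = 0.000136), Prc1, which recruits Kif4, 0.78 ± 0.17 (adjusted p = 2.75e-05), and Racgap1, which binds Kif23, 0.51 ± 0.18 (adjusted p = 0.0164) per the authors' deposited table. Cit, the citron kinase gene whose product binds Kif14, had a log2 fold change of -0.15 ± 0.18 (adjusted p = 0.572), and of the Aurora B complex that Kif20a carries, Incenp had -0.04 ± 0.17 (adjusted p = 0.899) and Cdca8 -0.07 ± 0.20 (adjusted p = 0.83) per the authors' deposited table. None of Cit, Incenp and Cdca8 was called, and these 3 were chosen after their values had been seen. Aurkb, the Aurora B kinase gene of that complex, was higher at a log2 fold change of 0.55 ± 0.19 (adjusted p = 0.0129) per the authors' deposited table, as was Birc5. Cenpe, a kinetochore kinesin that does not carry a Kif symbol, had a log2 fold change of 0.04 ± 0.18 (adjusted p = 0.882) per the authors' deposited table.

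Proliferation markers had 5 higher and 0 lower of 16 per the authors' deposited table, with a median of 0.23. The share called was 31.2%, against 33.5% of all genes. Mybl2, a transcription factor of dividing cells, rose to a log2 fold change of 1.81 ± 0.29 (adjusted p = 1.19e-08) and the mitotic kinase gene Cdk1 to 1.24 ± 0.18 (adjusted p = 2.1e-10) per the authors' deposited table. The difference between kinesins and these lists was not tested.

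Most promoters of mitotic kinesins held a short sequence known from cell cycle genes. The window from 250 bases before to 50 after the start of a gene was searched on both strands for the CHR, the cell cycle genes homology region through which cell cycle genes are repressed outside division, written as TTTGAA or TTCGAA, and for CCAAT, which often stands near it. RefSeq promoter windows (build GRCm38.p6) were found for 31 of the 41 members. The CHR letters stood in 9 of 12 mitotic kinesins (75.0%), 0 of 10 transport kinesins, 3 of 7 cilium and atypical kinesins and both C-terminal motors with a window, against 21.7% of 27025 genes. CCAAT stood in 7 of 12 mitotic kinesins and 3 of 10 transport kinesins, against 41.1% of all genes. Of the other motifs searched on both strands, E2F sites (TTTGGCGC, TTTCCCGC, TTTCGCGC or TTTGCCGC) stood in Kif15 and Kif18a, against 2.61% of all genes, and the E-box CACGTG in 0 of 31 members, against 8.09% of all genes.

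**Figure D3:**
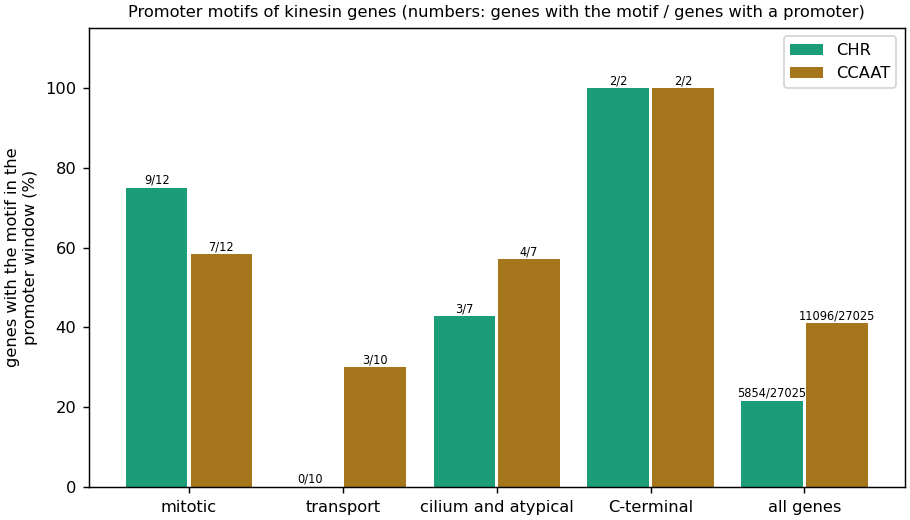
Percentage of genes with the CHR (TTTGAA or TTCGAA) or CCAAT in the 300 bases around the start, by kinesin role and over all 27025 genes with a window; the numbers above the bars count genes with the motif over genes with a window. CHR letters are found in 9 of 12 mitotic and 0 of 10 transport kinesins.

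These 5 windows are shown because they hold the CHR of the mitotic and C-terminal motors and, in Kif5c, a transport kinesin without it. Capitals mark TTTGAA or TTCGAA and CCAAT on either strand, so that a CHR on the other strand reads TTCAAA and a CCAAT reads ATTGG. All are written 5′ to 3′ on the strand of the gene.
Kif11 (chr19:37376132-37376431, plus strand): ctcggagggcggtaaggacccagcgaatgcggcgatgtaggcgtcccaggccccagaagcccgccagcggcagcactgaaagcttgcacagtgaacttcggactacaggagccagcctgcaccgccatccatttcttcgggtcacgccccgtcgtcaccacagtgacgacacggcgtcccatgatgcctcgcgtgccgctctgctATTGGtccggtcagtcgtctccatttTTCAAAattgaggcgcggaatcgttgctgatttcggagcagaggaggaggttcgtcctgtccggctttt
Kif15 (chr9:122950831-122951130, plus strand): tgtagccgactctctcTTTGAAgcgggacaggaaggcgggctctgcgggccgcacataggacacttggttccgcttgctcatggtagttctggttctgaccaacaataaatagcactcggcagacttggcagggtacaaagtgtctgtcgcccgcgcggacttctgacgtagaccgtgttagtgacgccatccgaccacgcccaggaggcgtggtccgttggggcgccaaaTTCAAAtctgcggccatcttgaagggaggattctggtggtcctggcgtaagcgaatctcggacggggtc
Kifc1 (chr17:33890584-33890883, minus strand): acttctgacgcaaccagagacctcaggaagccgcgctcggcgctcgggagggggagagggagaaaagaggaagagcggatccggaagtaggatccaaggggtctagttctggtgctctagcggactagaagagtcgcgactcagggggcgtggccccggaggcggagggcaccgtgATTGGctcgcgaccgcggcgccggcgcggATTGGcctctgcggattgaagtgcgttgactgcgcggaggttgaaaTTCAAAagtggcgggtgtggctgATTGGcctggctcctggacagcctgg
Kifc5b (chr17:26916841-26917140, plus strand): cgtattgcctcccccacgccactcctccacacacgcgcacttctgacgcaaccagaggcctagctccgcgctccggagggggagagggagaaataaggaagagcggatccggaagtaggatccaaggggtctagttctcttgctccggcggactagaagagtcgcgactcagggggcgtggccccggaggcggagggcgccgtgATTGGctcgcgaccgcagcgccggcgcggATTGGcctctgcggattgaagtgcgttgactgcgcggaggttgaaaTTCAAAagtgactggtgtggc
Kif5c (chr2:49619036-49619335, plus strand): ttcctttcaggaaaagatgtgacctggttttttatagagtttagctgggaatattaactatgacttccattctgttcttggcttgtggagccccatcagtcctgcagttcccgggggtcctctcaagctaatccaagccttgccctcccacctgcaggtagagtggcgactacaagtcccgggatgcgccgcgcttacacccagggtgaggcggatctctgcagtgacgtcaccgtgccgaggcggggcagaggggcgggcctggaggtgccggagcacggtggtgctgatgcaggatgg

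In Kif11 and Kif15 a CHR was centred 16 bases before the start, and Kif15 held another 231 bases before it. Kifc1 had the CHR centred 4 bases after the start and Kifc5b 32 bases after it, within a run of the same letters, and their windows were identical at 248 of 262 aligned bases (94.7%). A match is only a match of letters. Members with the CHR included Kif11, which was not called, Kif15, which was higher, and Kif24 and Kif27, which were lower.

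Transport kinesins had 1 higher and 4 lower of 15 per the authors' deposited table, 33.3% called, against 33.5% of all genes, with a median log2 fold change of -0.19. The share called was near that of all genes, and the called genes were those of kinesin-1, Kif17 and Kif16b, while the other 10 were not called.

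The heavy chains of kinesin-1, the classical carrier of vesicles, mitochondria and RNA, were all called, and in opposite directions. Kif5b, the form found in most tissues, was 2.01-fold higher in CDH1+/THY1+ cells per the authors' deposited table (log2 1.01 ± 0.12, adjusted p = 9.68e-15, mean count 3666). Kif5c, a form enriched in neurons (chromosome 2), was 2.07-fold lower (log2 -1.05 ± 0.19, adjusted p = 4.58e-07, mean count 852) per the authors' deposited table. Kif5a, the other form enriched in neurons, was 1.90-fold lower (log2 -0.92 ± 0.21, adjusted p = 9.79e-05, mean count 341) per the authors' deposited table. With equal numbers of samples, a mean over both populations and a fold change imply a level in each. Per kilobase of exon, the implied mean count of Kif5b was 613.9 in CDH1+/THY1+ cells and 304.8 in CDH1-/THY1+ cells per the authors' deposited table. That of Kif5c was 77.6 in CDH1+/THY1+ cells and 161.0 in CDH1-/THY1+ cells, and that of Kif5a 33.7 in CDH1+/THY1+ cells and 63.9 in CDH1-/THY1+ cells, per the authors' deposited table. Kif5b thus made up 84.7% of the kinesin-1 heavy chain level in CDH1+/THY1+ cells, against 57.6% in CDH1-/THY1+ cells. The sum of the 3 was 725 in CDH1+/THY1+ cells and 530 in CDH1-/THY1+ cells, a ratio of 1.37. These levels rest on the shrunken fold changes and have no SD.

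**Figure D4:**
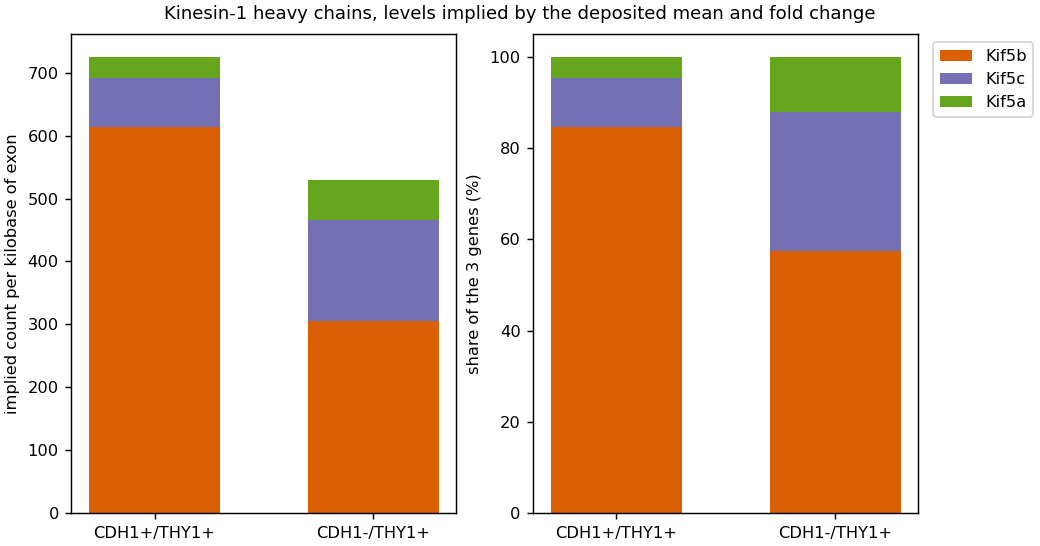
Levels of the kinesin-1 heavy chain genes implied by the authors' deposited mean count and fold change, per kilobase of exon (left) and as a share of the 3 genes (right), in CDH1+/THY1+ and CDH1-/THY1+ cells; no error bars can be given without values per library. The share of Kif5b is 84.7% in CDH1+/THY1+ cells and 57.6% in CDH1-/THY1+ cells.

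Genes that link kinesins of several classes to cargo were also called in both directions. Of 21 genes of light chains, accessory subunits and adaptors, which include Kifap3 of kinesin-2, the kinesin-3 adaptor gene Madd and Kif1bp, 7 were higher and 6 lower per the authors' deposited table. The share called was 61.9%, against 33.5% of all genes, and the median was -0.02. Among light chains of kinesin-1, which bind cargo, Klc1 was higher at a log2 fold change of 0.57 ± 0.17 (adjusted p = 0.00418) and Klc4 lower at -0.60 ± 0.16 (adjusted p = 0.00097), while Klc2 had -0.26 ± 0.16 (adjusted p = 0.205) and Klc3 -0.20 ± 0.21 (adjusted p = 0.51) per the authors' deposited table. Plekhm2, known as SKIP, which links kinesin-1 to lysosomes, rose to a log2 fold change of 0.95 ± 0.25 (adjusted p = 0.000904), and Trak1, which links it to mitochondria, to 0.86 ± 0.17 (adjusted p = 4.66e-06) per the authors' deposited table. Madd, an adaptor of kinesin-3 cargo, fell to a log2 fold change of -0.87 ± 0.21 (adjusted p = 0.000188), and the liprin gene Ppfia1 to -0.69 ± 0.15 (adjusted p = 2.95e-05) per the authors' deposited table.

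In the kinesin-2 class, which serves cilia and membranes, the motor gene Kif17 was lower and the accessory subunit gene of the heterotrimers was higher. Kif17, a homodimer that carries receptors in neurons and a transcriptional coactivator in male germ cells of mouse, was 2.65-fold lower (log2 -1.40 ± 0.29, adjusted p = 1.58e-05) at a mean count of 68.3 per the authors' deposited table. The motor genes of the heterotrimers were not called, with a log2 fold change of -0.46 ± 0.22 for Kif3a (adjusted p = 0.0934), -0.02 ± 0.16 for Kif3b (adjusted p = 0.948) and -0.19 ± 0.20 for Kif3c (adjusted p = 0.485) per the authors' deposited table. Kifap3, the accessory subunit of the heterotrimers, was higher at a log2 fold change of 0.67 ± 0.15 (adjusted p = 0.000105) per the authors' deposited table.

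In the kinesin-3 class, the endosome motor gene Kif16b was lower at a log2 fold change of -0.41 ± 0.16 (adjusted p = 0.0278) per the authors' deposited table, a call lost under Benjamini-Yekutieli adjustment (adjusted p = 0.364). Kif1b, a carrier of mitochondria and synaptic vesicle precursors, had a log2 fold change of 0.11 ± 0.14 (adjusted p = 0.567), and Kif1c, a carrier of dense core vesicles, -0.26 ± 0.17 (adjusted p = 0.233) per the authors' deposited table. Kif13a, a carrier of mannose 6-phosphate receptors, had a log2 fold change of 0.00 ± 0.16 (adjusted p = 0.994), with a 95% interval of -0.32 to 0.32, and Kif13b, a partner of DLG1, -0.20 ± 0.18 (adjusted p = 0.413) per the authors' deposited table. Kif1bp, the binding protein of the Kif1 motors, had a log2 fold change of -0.24 ± 0.14 (adjusted p = 0.193) per the authors' deposited table. None of these 5 was called. Kif28 had a log2 fold change of 0.77 ± 0.63 (adjusted p = 0.365) at a mean count of 3.07 per the authors' deposited table, or 19 reads, with 0, 1, 1, 3, 6 and 8 in the 6 unnamed libraries. Its reads were too few to show a difference of that size. Of the microtubule growth regulators Kif21a and Kif21b, the first had a log2 fold change of 0.06 ± 0.18 (adjusted p = 0.845) and the second -0.11 ± 0.18 (adjusted p = 0.701) per the authors' deposited table.

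Kinesins of cilia, centrioles and atypical function had 5 lower and 0 higher of 8 per the authors' deposited table, with a median of -0.83. The share called was 62.5%, against 33.5% of all genes. In the same samples 14 of 18 germ cell markers were lower, and the part of that shift was not tested. The lowest was Kif26a (chromosome 12), a kinesin without ATPase activity that restrains GDNF and RET signalling in enteric neurons of mouse. It was 4.24-fold lower (log2 -2.08 ± 0.21, adjusted p = 8.42e-22) at a mean count of 1666 per the authors' deposited table. The 95% interval ran from -2.49 to -1.68. Its paralogue Kif26b, known from kidney development, had a log2 fold change of 0.20 ± 0.19 (adjusted p = 0.472) at a mean count of 1096 per the authors' deposited table. Ret, the GDNF receptor gene, named here after its value had been seen, fell to a log2 fold change of -1.14 ± 0.22 (adjusted p = 3.68e-06) per the authors' deposited table.

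Kif27 and Kif7 are vertebrate relatives of the fly Hedgehog kinesin Costal2. Of the 2, Kif27 was called and Kif7 was not, and the difference between them was not tested. Kif27, which works in motile cilia, was 3.52-fold lower (log2 -1.82 ± 0.22, adjusted p = 2.12e-14), and Kif7, which organises the tip of the primary cilium for Hedgehog signalling, had -0.23 ± 0.21 (adjusted p = 0.417) per the authors' deposited table. Their mean counts were alike, 386 for Kif27 and 382 for Kif7. Stk36, the Fused kinase that binds Kif27, fell to a log2 fold change of -0.68 ± 0.22 (adjusted p = 0.00745) per the authors' deposited table. Of 11 Hedgehog pathway genes, 1 was higher and 3 lower, with a median of -0.16 per the authors' deposited table. The share called was 36.4%, against 33.5% of all genes. The pathway's target gene Gli1 rose to a log2 fold change of 1.85 ± 0.36 (adjusted p = 3.04e-06) at a mean count of 49.4, while Ptch1, another target and the Hedgehog receptor, had -0.32 ± 0.17 (adjusted p = 0.12) per the authors' deposited table.

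Kif19a, which trims microtubules at ciliary tips and so sets cilium length, was 3.14-fold lower (log2 -1.65 ± 0.18, adjusted p = 1.03e-17, mean count 358) per the authors' deposited table. Kif6, a kinesin of motile cilia, was 2.18-fold lower (log2 -1.12 ± 0.33, adjusted p = 0.00348, mean count 53.3), and Kif9, a motor of the sperm flagellum, had -0.44 ± 0.34 (adjusted p = 0.335, mean count 53.8) per the authors' deposited table. Kif24, a centriolar depolymerase that holds back cilium growth, was 1.45-fold lower (log2 -0.53 ± 0.19, adjusted p = 0.0211) per the authors' deposited table, a call lost under Benjamini-Yekutieli adjustment (adjusted p = 0.278). The ciliated cell markers with an adjusted p gave no common direction, with 1 higher and 3 lower of 9 and a median of 0.06. The share called was 44.4%, against 33.5% of all genes. Foxj1, the master regulator of motile cilia, rose to a log2 fold change of 1.50 ± 0.41 (adjusted p = 0.00145), and the axonemal dynein genes Dnah9 and Dnah5 fell to -1.54 ± 0.54 (adjusted p = 0.0149) and -0.89 ± 0.31 (adjusted p = 0.0147), at mean counts of 33.9, 13.2 and 61.2 per the authors' deposited table. Of 6 spermatid genes with an adjusted p, 3 were lower and 1 was higher, 66.7% called, against 33.5% of all genes. Among them were the sperm fibrous sheath gene Akap4 at a log2 fold change of -1.96 ± 0.61 (adjusted p = 0.00582, mean count 8.36), the lactate dehydrogenase gene Ldhc at -1.23 ± 0.29 (adjusted p = 0.000133) and the tail and centrosome gene Odf2 at 1.23 ± 0.20 (adjusted p = 1.13e-08) per the authors' deposited table.

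C-terminal motors had 3 higher and 0 lower of 4 per the authors' deposited table, with a median of 0.75, while 7 of 20 fibroblast markers were also higher. The share called was 75% for C-terminal motors and 35.0% for fibroblast markers, against 33.5% of all genes. Kifc3, a motor of apical transport that gathers at epithelial adherens junctions in human cells, was 2.17-fold higher (log2 1.12 ± 0.23, adjusted p = 1.92e-05, mean count 390) per the authors' deposited table. Kifc1, which focuses spindle poles and clusters centrosomes, was 1.66-fold higher (log2 0.73 ± 0.17, adjusted p = 0.000112, mean count 702), and its near copy Kifc5b 1.71-fold higher (log2 0.77 ± 0.27, adjusted p = 0.0137, mean count 329) per the authors' deposited table. Both copies lie on chromosome 17. Of all stretches of 50 bases in the longest Kifc1 transcript, 47.6% also occur in transcripts of other genes, mostly Kifc5b, and 42.1% of those of Kifc5b occur elsewhere, mostly in Kifc1. Reads of the copies could have been split or left out, so their separate values are uncertain and they are not independent calls. That of Kifc5b was lost under Benjamini-Yekutieli adjustment (adjusted p = 0.183). Kifc2, a motor of neurons, had a log2 fold change of -0.41 ± 0.27 (adjusted p = 0.258, mean count 73.2) per the authors' deposited table. For Kifc3, 23.1% of stretches occur in transcripts of other genes, and whether reads were counted by strand is not given in the sources used here.

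The same question of overlap touched 14 members with exons over a gene on the opposite strand and 4 with exons over a gene on the same strand, with Kif5b, Kif27, Kif6 and Kifc3 among the called ones on the opposite strand and Kif17 and Kif27 among those on the same strand. Besides Kifc1, Kifc5b and Kifc3, the share of stretches of 50 bases found in transcripts of other genes was above 10% in 6 members, none of them called, with 43.4% for Kif3c, 31.2% for Kif20a, 23.0% for Kif2a, 16.6% for Kif1bp, 16.3% for Kif7 and 16.2% for Kif4, so their counts may hold reads of other genes or lack reads left out. Among called members the share was 4.31% for Kif5b, 4.67% for Kif27, 0.437% for Kif15, 0.431% for Kif6 and 0.343% for Kif24, and none was found for Kif5c, Kif5a, Kif17, Kif26a, Kif19a, Kif16b or Kif2b.

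Cytoplasmic dynein, the motor that walks against most kinesins, and its activator dynactin were called in both directions. Of 25 genes with an adjusted p, 7 were higher and 4 lower per the authors' deposited table, with a median of -0.01. The share called was 44.0%, against 33.5% of all genes. The light chain gene Dynlt3 rose to a log2 fold change of 0.84 ± 0.19 (adjusted p = 9.77e-05) and the dynactin subunit gene Dctn3 to 0.71 ± 0.16 (adjusted p = 0.000116) per the authors' deposited table. The cargo adaptor gene Bicd2 fell to a log2 fold change of -0.82 ± 0.15 (adjusted p = 7.57e-07) and Dync2h1, the heavy chain of the dynein that returns cargo from ciliary tips, to -0.70 ± 0.17 (adjusted p = 0.000245) per the authors' deposited table.

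Genes known from neurons, where Kif5a, Kif5c and Kif17 are best studied, gave no common direction. Of 10 neuron markers, 3 were higher and 2 lower per the authors' deposited table, with a median of 0.38. The share called was 50%, against 33.5% of all genes. The cytoskeletal gene Map2 rose to a log2 fold change of 1.57 ± 0.36 (adjusted p = 9.27e-05) and the growth cone gene Gap43 to 1.55 ± 0.36 (adjusted p = 0.000149), while the neurofilament genes Nefm and Nefh fell to -0.93 ± 0.26 (adjusted p = 0.00174) and -0.89 ± 0.31 (adjusted p = 0.015) per the authors' deposited table.

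**Figure D5:**
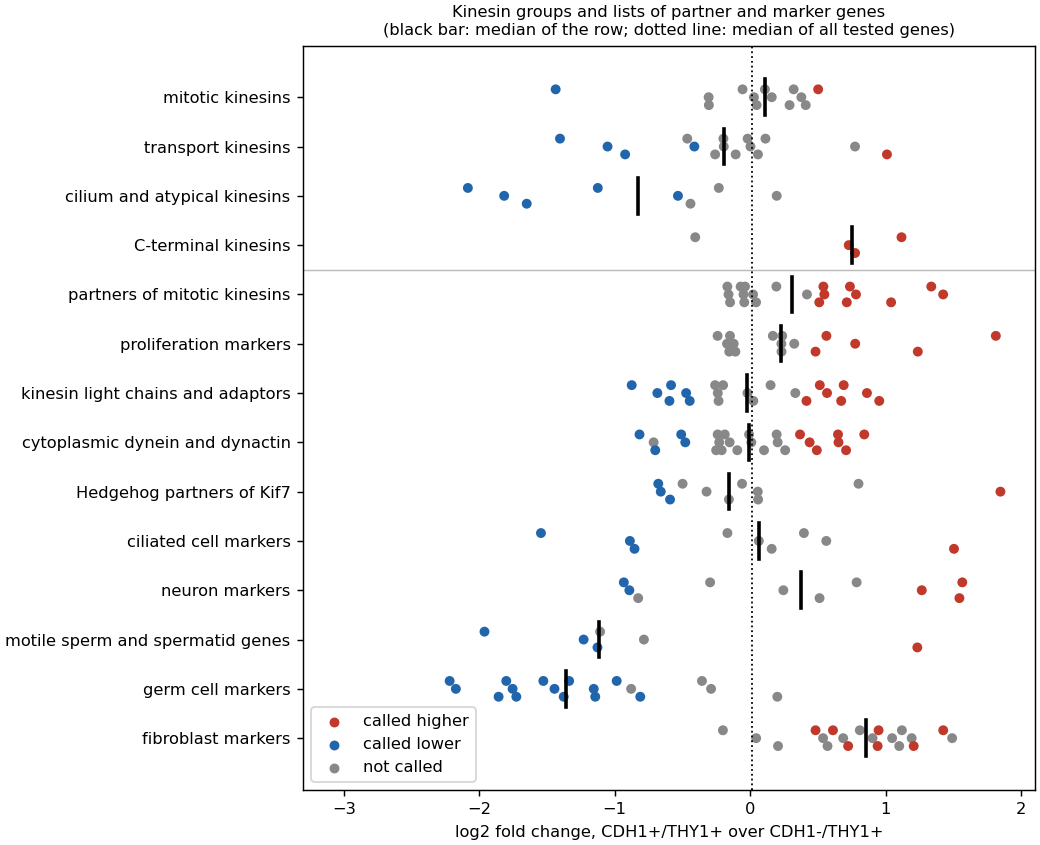
Changes on the log2 scale, CDH1+/THY1+ over CDH1-/THY1+, of the kinesin groups (above the grey line) and of the partner and marker lists; each point is a gene, the black bar is the median of its row, and the dotted line is the median of all tested genes (0.01). The cilium and atypical kinesins have a median of -0.83 and the germ cell markers -1.36, while the mitotic kinesins stand at 0.11 and their partners at 0.31.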

How the data were processed

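The submitters' processing notes name R 3.3.1, DESeq2 1.12.3, featureCounts (Subread 1.5.0-p3), TopHat2 2.1.1 and Trimmomatic 0.32, with build GRCm38.p4. Per the labels' protocols, libraries were stranded and depleted of ribosomal RNA. The annotation, counting settings and model formula are not given in the sources used here. The authors deposited 1 table of 22432 genes, with a mean normalised count over all libraries (a signal), a log2 fold change with its standard error on the log2 scale, a Wald statistic (a score), and p-values with their adjusted p-values. Called means an adjusted p under 0.05 by the authors' DESeq2 test, and 3221 rows without one were not counted as tested.

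Symbols, positions and merged exon lengths came from GENCODE M21 by Ensembl identifier (22317 rows with a symbol). Intervals are 95% Wald intervals of the deposited values. The number of sequenced reads per sample is not given. Mean normalised counts of the 19211 genes with an adjusted p sum to 1.69e+07. The reads of members with a mean count under 10 were recovered as whole reads of 6 unnamed libraries. The amounts 1 read adds to a mean were found from the 1228 distinct means under 1.6, 100% of which came out whole, and 1 set of reads per gene matched its mean to within 3e-09. This was tested on simulated data. Stretches of 50 bases of the longest transcript of each member were looked up in all M21 transcripts on both strands. Python 3.11.15, pandas 2.3.3 and biopython 1.88 were used.

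The members and lists were chosen with earlier results of these data known. Every member is named, and of each list the called genes with the largest fold changes (up to 2 each way) and the direct partners of kinesins. A called gene that this rule names is not reported here. Cultures RP7, RP5 and WT1 recur in both populations, but nothing says whether the deposited test used this, and p-values measure only the spread between these samples.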

Additional observations from a re-analysis of the deposited data

How the results depend on the processing

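The alternatives run change only the adjustment, the filter or the grouping. They reuse the deposited fold changes, so none of the 15 calls could change direction in them. Setting aside the 10% of genes with the highest standard errors at their mean count could not remove a member. The highest percentile among members was 85, so that setting says nothing about the calls. With Benjamini-Hochberg adjustment over all rows with a p-value, the same kinesins were called as reported, in each group. At an adjusted p under 0.01, and likewise under Benjamini-Yekutieli adjustment, 3 members were higher (Kif5b, Kifc1 and Kifc3), and of the mitotic kinesins 0 were higher and 0 lower. Benjamini-Yekutieli adjustment ended the calls of Kif15 (adjusted p = 0.291), Kif16b (0.364), Kif24 (0.278), Kif2b (0.479) and Kifc5b (0.183). It also ended calls of list genes named here, among them S100a4 (0.473), Racgap1 (0.217), Dnah9 (0.199), Dnah5 (0.195) and Stk36 (0.101). With at least a 2-fold change, 2 members were higher (Kif5b and Kifc3), with 0 mitotic kinesins and 1 C-terminal motor higher, and 2 transport kinesins lower (Kif17 and Kif5c). With a mean count of at least 100, 0 mitotic kinesins were lower. With cilium and atypical kinesins counted as transport kinesins, 9 were lower.

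No paired analysis was possible because the deposited table holds no value per library, and leaving out a library was not run for the same reason. Calls at low mean counts, Kif2b above all, are limited by depth.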
